A study of Mus musculus with 8 samples.

Results

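Prostaglandin synthesis and receptor genes were followed in dermal fibroblasts of old and young mice. The 10 genes were chosen by symbol: 6 for synthesis (Ptgs1, Ptgs2, Ptges, Ptges2, Ptgis and Ptgds), 3 for prostaglandin E2 receptors (Ptger2, Ptger3 and Ptger4) and 1 for breakdown (Hpgd). Of these, 9 had at least 1 probe set with a single symbol, 16 probe sets in all, among 17097 genes measured. Ptgs1 had none in the annotation used and was not analysed here.

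Fibroblasts came from 4 old mice (18 months) and 4 young mice (2 months), with 1 array per animal. Per the labels, skin without its subdermis was digested with collagenase, and cells were sorted for Pdgfra and CD34 and against CD45, CD117, CD24, CD31 and EpCam. The amplified cDNA of 6 ng total RNA went on each Affymetrix array. Sex, strain and any treatment are not given in the sources used here, and the gate selects a CD34-positive class rather than all dermal fibroblasts. Values are normalized log2 levels, and a difference is old minus young.

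Prostaglandins are lipid signals made from arachidonic acid, which phospholipases and monoacylglycerol lipase release from membrane lipids. Cyclooxygenases, encoded by Ptgs1 and the inducible Ptgs2, turn it into prostaglandin H2, and terminal synthases turn that into prostaglandin E2, D2, F2alpha or prostacyclin. Prostaglandin E2 acts on 4 receptors. The products of Ptger2 and Ptger4 raise cyclic AMP, whereas that of Ptger3 mainly lowers it. Hpgd encodes 15-hydroxyprostaglandin dehydrogenase, which inactivates prostaglandin E2 inside cells. In skin, prostaglandin E2 is known for its part in inflammation, wound repair and restraint of fibroblast activation.

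The median log2 level of an array ranged from 5.19 to 5.34. Across genes the arrays correlated between 0.992 and 0.997 among old animals, between 0.994 and 0.997 among young animals, and between 0.983 and 0.990 across ages. Of the sort gate, none of 7 genes passed the test. Pdgfra lay between 8.34 and 8.64 in old fibroblasts and between 8.20 and 8.54 in young, and Cd34 between 11.57 and 11.79 in old and between 11.63 and 11.81 in young. Of the genes sorted against, Epcam (difference 0.34, adjusted p = 0.0746) and Ptprc (0.17, adjusted p = 0.101) lay wholly above in old arrays, and Cd24a differed by -0.67 (adjusted p = 0.0515). Fibroblast markers were bright, with mean levels over 9 genes of 10.97 to 11.06 in old and 11.11 to 11.25 in young fibroblasts, so the old arrays lay wholly below. The collagen gene Col3a1 passed as lower in old (-0.28, adjusted p = 0.00765), and Col1a1 and Lum lay wholly below in old without passing. The mean of nonspecific control probe sets with 18 to 25 G or C bases, a background index, was 5.83 in old and 6.43 in young.

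Of the 9 measured genes, Ptger3 rose, Hpgd fell and the other 7 did not pass the test. Over all genes, 9.87% were called higher and 7.66% lower in old fibroblasts. The members' counts, 1 of 9 each way (2 of 9 beside 17.5% in both directions), were near those shares. Old and young arrays did not overlap for the same 2 genes, whereas 11.7% of all genes lay wholly above and 9.66% wholly below in old, 21.3% together. The members' median difference was 0.05, against 0.01 over all 17097 genes. In bulk RNA, more cells that carry a transcript and more transcript per cell cannot be told apart.

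**Figure D1:**
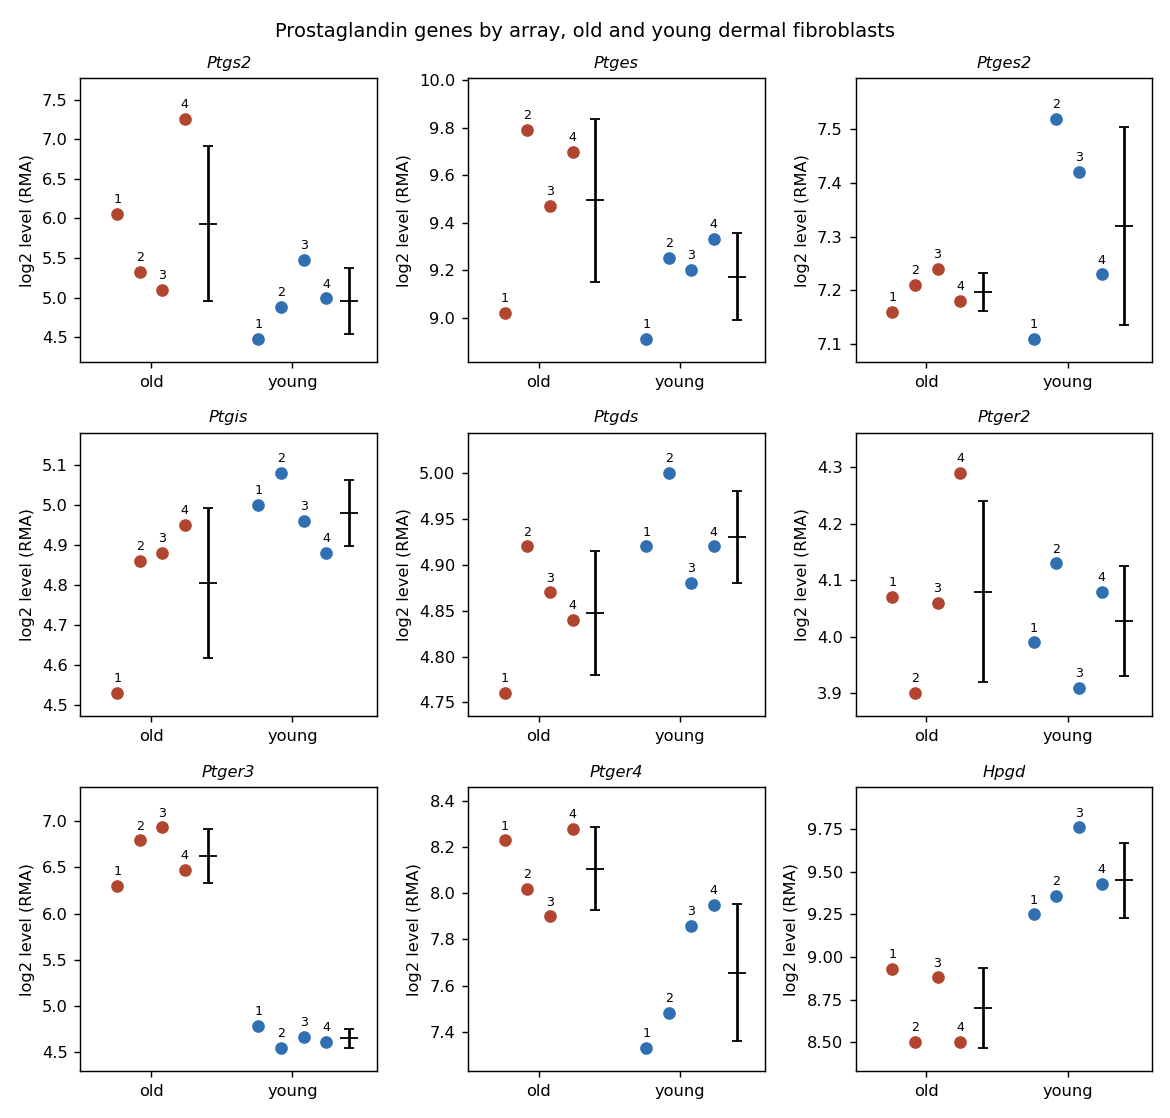
Normalized log2 level (y axes, each with its own range) of the 9 measured prostaglandin genes in the 4 old and 4 young arrays, numbered by specimen, with black bars for the mean and SD. Ptger3 lay between 6.30 and 6.93 in old and between 4.55 and 4.79 in young arrays, Hpgd was lower in every old array, and the groups overlapped for the other 7 genes.

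Ptger3, which encodes the inhibitory prostaglandin E2 receptor EP3, showed the largest difference among the members. Its log2 level was 6.30, 6.79, 6.93 and 6.47 in the old arrays, against 4.79, 4.55, 4.67 and 4.61 in the young arrays. Every old array stood above every young one, by more than the spread within either group. The mean was 6.62 ± 0.29 in old and 4.66 ± 0.10 in young fibroblasts (SD, n = 4 each). The difference was 1.97 ± 0.13 on the log2 scale (SE, limma, adjusted p = 1.8e-05), or 3.91-fold with a 95% interval of 3.20 to 4.78. It ranked 22 among all 17097 genes ordered from the largest rise. The young level lay below the array medians, the deposited table holds no detection call and RMA compresses differences near background. This probe set may therefore understate the fold, which was not tested. The other Ptger3 probe set gave 2.32-fold, so the size of the rise depended on the probe set.

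The other Ptger3 probe set gave the same direction. It read 5.38, 5.56, 5.49 and 5.05 in the old arrays, against 4.17, 3.98, 4.23 and 4.24 in the young arrays. Its difference was 1.22 ± 0.11 on the log2 scale (SE, limma over all 45141 probe sets, adjusted p = 1.8e-04), where 7.6% of probe sets were called higher in old. EP3 transcripts are alternatively spliced at the receptor's C-terminal tail, and the annotation does not say which forms each probe set detects. The rise was kept in a fit that also held the background index (2.54, adjusted p = 3.3e-04), and likewise with keratinocyte marker level as a covariate (1.90, adjusted p = 5.1e-04).

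Markers of vessel-associated cells were set beside the rise of Ptger3. Of 5 pericyte and smooth muscle markers 1 passed, Kcnj8, at 9.07 ± 0.18 in old and 8.43 ± 0.43 in young fibroblasts (SD, n = 4 each, adjusted p = 0.0429). The lowest old and the highest young Kcnj8 level were both 8.86. The mean level of the 5 markers was 6.92, 6.93, 7.34 and 6.87 in old arrays, against 6.40, 6.47, 6.41 and 6.64 in young arrays, so the groups did not overlap. Old replicate 3 was highest, and without it the Ptger3 difference was 1.87 (adjusted p = 6.1e-05). Rgs5 differed by 1.20 with no overlap between the ages (adjusted p = 0.0696) and Acta2 by 0.72 (adjusted p = 0.0502). Rgs5 read 6.93 in old replicate 3 and 4.86 to 4.96 in the other old arrays. Myh11 differed by 0.32 (adjusted p = 0.495) and Des by -0.18 (adjusted p = 0.345). Of 6 endothelial markers 1 passed, the angiopoietin receptor gene Tek, which was higher in old by 1.73 (adjusted p = 0.00111). Pecam1, which the sort selected against, differed by 0.37 (adjusted p = 0.294). The mean endothelial level ran from 5.25 to 5.77 in old and from 5.03 to 5.26 in young arrays. The part of these markers in the Ptger3 result was not tested.

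Hpgd, the gene for the enzyme that inactivates prostaglandin E2, fell in old fibroblasts. Its log2 level was 8.93, 8.50, 8.88 and 8.50 in the old arrays, against 9.25, 9.36, 9.76 and 9.43 in the young arrays. The groups did not overlap, with old replicates 2 and 4 lowest. The mean was 8.70 ± 0.23 in old and 9.45 ± 0.22 in young fibroblasts (SD, n = 4 each). The difference was -0.75 ± 0.14 on the log2 scale (SE, limma, adjusted p = 0.00449), so that old fibroblasts held 0.60 times the young level (95% interval 0.48 to 0.73). Over all probe sets, 5.48% were called lower in old, and the one that stands for Hpgd was among them (adjusted p = 0.00648). As a gene it ranked 248 among all genes ordered from the largest fall.

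The other Hpgd probe set, whose suffix marks probes shared with further transcripts, read 8.12, 7.12, 7.51 and 7.45 in old arrays, against 7.94, 8.03, 8.43 and 8.15 in young arrays. Old replicate 1 lay among the young arrays there. The difference of -0.59 ± 0.19 (SE) did not pass over all probe sets (limma, adjusted p = 0.074). In a fit that also held the background index, the Hpgd difference was -0.80 but the call was lost (adjusted p = 0.249). With keratinocyte marker level as a covariate it was -0.80 too and the call was kept (adjusted p = 0.0252).

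**Figure D2:**
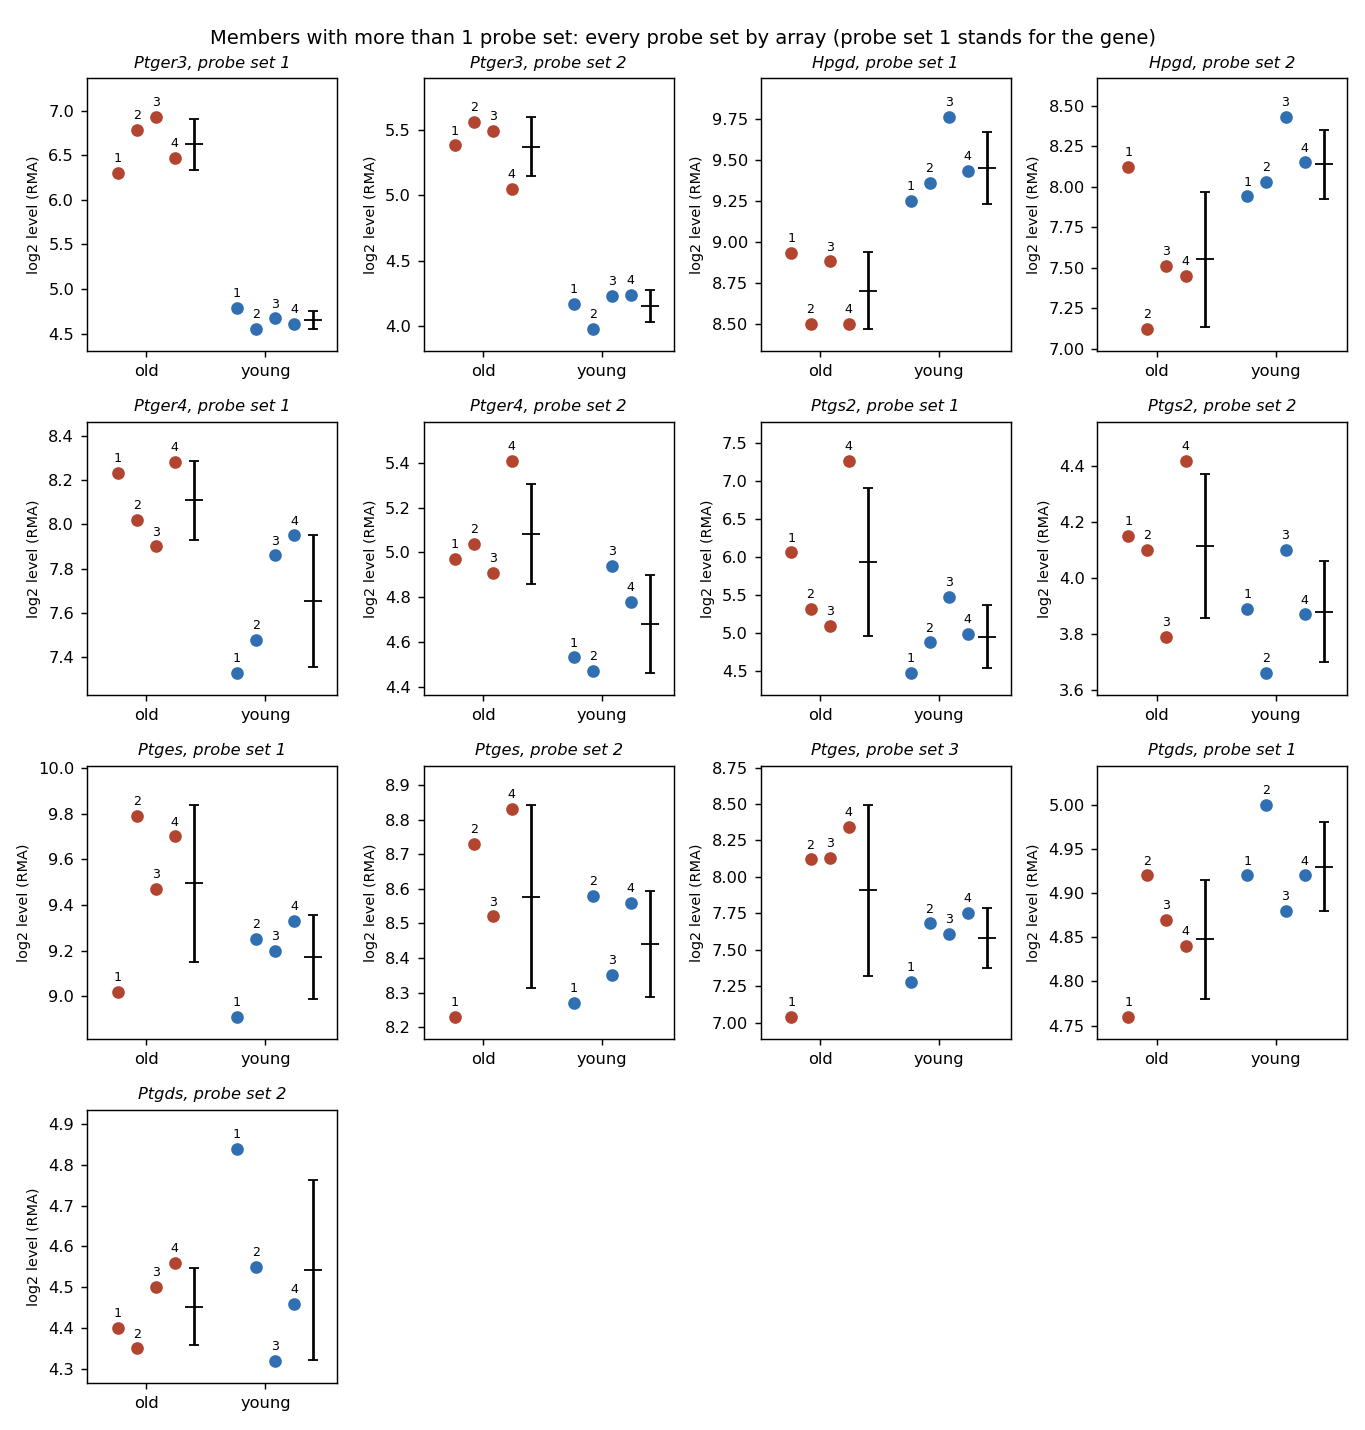
Normalized log2 level of every probe set of the 6 members that have more than 1, by array and specimen number, with black bars for the mean and SD (n = 4). Probe set 1 is the one of highest mean and stands for the gene. Both Ptger3 probe sets separated the ages, 1 of 2 Hpgd probe sets did, and the groups overlapped in the other probe sets shown.

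The promoters of the genes that passed are printed with that of Ptgs2, whose textbook induction runs through a cyclic AMP response element, an E-box and C/EBP sites. The sequences cover 250 bases before to 50 after each RefSeq gene start on build GRCm38.p6. Ptger3 lies at chr3:157566626-157566925, Hpgd at chr8:56294302-56294601 and Ptgs2 at chr1:150099781-150100080, all on the plus strand. Capitals mark matches to 6 motifs on either strand. The core of the cyclic AMP response element was searched as ACGTCA. The E-box, a site of basic helix-loop-helix factors, was searched as CACGTG. The C/EBP palindrome was searched as TTGCGCAA and the TATA box as TATAAA. The GC box, a site of Sp factors, was searched as GGGCGG. The NR4A element, bound by the receptors that Nr4a genes encode, was searched as AAAGGTCA.
Ptger3: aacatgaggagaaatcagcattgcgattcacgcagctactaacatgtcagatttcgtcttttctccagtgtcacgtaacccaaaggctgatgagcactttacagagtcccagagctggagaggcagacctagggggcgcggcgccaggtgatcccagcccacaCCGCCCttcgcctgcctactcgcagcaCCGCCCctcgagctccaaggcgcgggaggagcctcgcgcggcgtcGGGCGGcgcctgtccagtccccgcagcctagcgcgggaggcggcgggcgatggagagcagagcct
Hpgd: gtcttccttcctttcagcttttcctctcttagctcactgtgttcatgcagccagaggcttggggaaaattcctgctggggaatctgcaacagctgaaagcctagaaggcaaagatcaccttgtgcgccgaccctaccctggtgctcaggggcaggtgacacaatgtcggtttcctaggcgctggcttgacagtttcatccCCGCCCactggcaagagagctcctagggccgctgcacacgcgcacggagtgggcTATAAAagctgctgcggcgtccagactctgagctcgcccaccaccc
Ptgs2: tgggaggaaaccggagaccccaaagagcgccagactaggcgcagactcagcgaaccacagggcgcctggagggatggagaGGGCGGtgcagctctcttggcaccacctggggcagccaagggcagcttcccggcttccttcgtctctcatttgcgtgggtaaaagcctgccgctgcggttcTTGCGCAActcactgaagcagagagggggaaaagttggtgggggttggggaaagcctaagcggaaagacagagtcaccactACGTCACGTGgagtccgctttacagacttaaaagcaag

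Positions are counted from the RefSeq gene start, with negative numbers before it. The Ptger3 window held 3 GC boxes, beginning at -87, -60 and -15, and none of the other motifs. GC boxes were found in 35.7% of 32851 RefSeq promoter windows of this length. The Hpgd window held 1 GC box, beginning at -50. Its letters TATAAA began at 5, after the annotated start and not before it as in a TATA box that serves that start, and were found in 13.6% of windows. Ptgs2 had the cyclic AMP core, beginning at 13, overlapping the E-box, beginning at 17, both after the annotated start. Its C/EBP palindrome began at -69 and its GC box at -170. The core was found in 7.51% of windows, the E-box in 7.15% and the palindrome in 0.183%. No NR4A element was found in the 3 windows, against 1.51% of all windows. A match here is a description of the letters and not evidence of binding.

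Ptger4 encodes EP4, a receptor that raises cyclic AMP. Its log2 level was 8.23, 8.02, 7.90 and 8.28 in old arrays, against 7.33, 7.48, 7.86 and 7.95 in young arrays. Old replicate 3 lay below young replicate 4, so the groups overlapped narrowly. The difference of 0.45 ± 0.14 (SE, 95% interval 0.13 to 0.77) missed the threshold (limma, adjusted p = 0.0574). It was 0.55 without young replicate 4 (adjusted p = 0.0323), the only array whose removal gave a call. With each other array left out the adjusted p ran from 0.053 to 0.141. The other Ptger4 probe set differed by 0.40 ± 0.13 (SE, adjusted p = 0.0787 over all probe sets). Once the background index was in the fit, the gene differed by 0.03 (adjusted p = 0.985).

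Ptger2, the gene for EP2, which also raises cyclic AMP, was dim. It read 4.07, 3.90, 4.06 and 4.29 in old arrays, against 3.99, 4.13, 3.91 and 4.08 in young arrays. The groups overlapped throughout, and the difference was 0.05 with a 95% interval of -0.15 to 0.25 (adjusted p = 0.756). The deposited table holds no detection call, so whether Ptger2 lay above background was not determined. On the same arrays 3 Y-linked transcripts were listed between 3.51 and 4.39.

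Ptgs2, the inducible cyclooxygenase, varied most between animals. Its log2 level was 6.06, 5.32, 5.10 and 7.26 in old arrays, against 4.48, 4.88, 5.48 and 4.99 in young arrays. Old replicate 4 was highest, and young replicate 3 lay above old replicates 2 and 3. The mean was 5.94 ± 0.97 in old and 4.96 ± 0.41 in young fibroblasts (SD, n = 4 each). The young mean lay below the array medians and RMA compresses differences near background, so the size of the difference is uncertain. The difference of 0.98 had a 95% interval of 0.05 to 1.90 and did not pass (limma, adjusted p = 0.145). Without old replicate 4 it was 0.54 (adjusted p = 0.232). The other Ptgs2 probe set, dimmer at 3.79 to 4.42 in old and 3.66 to 4.10 in young arrays, differed by 0.24 (adjusted p = 0.308 over all probe sets), and the mean over both by 0.61 (adjusted p = 0.157).

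Old replicate 4 was also highest for keratinocyte markers, whose mean level over 10 genes was 7.86, 8.14, 8.50 and 8.96 in old arrays, against 7.65, 7.20, 8.46 and 7.39 in young arrays. Young replicate 3 was the highest young array for both. The remaining old arrays did not keep one order, as old replicate 1 was second highest for Ptgs2 and the lowest old array for these markers, and old replicate 3 was the lowest old array for Ptgs2 and the second highest for the markers. Of these markers Krt5, Krt14 and Perp passed as higher and Trp63 and Lor as lower in old fibroblasts. With keratinocyte marker level as a covariate, Ptgs2 differed by 0.46 (adjusted p = 0.629), and with the background index by -0.13 (adjusted p = 0.975). The mean level of 9 dissociation stress genes was 11.57, 11.72, 11.71 and 11.71 in old arrays, against 11.67, 11.69, 11.75 and 11.77 in young arrays, and none passed the test, with Egr1, Fos and Atf3 near the top of the range. The part of either marker list in the Ptgs2 values was not tested beyond that covariate.

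Ptges, the inducible prostaglandin E2 synthase that couples to Ptgs2, was bright in both ages. It read 9.02, 9.79, 9.47 and 9.70 in old arrays, against 8.91, 9.25, 9.20 and 9.33 in young arrays. Old replicate 1 lay with the young arrays and the other old arrays lay above all of them. The difference was 0.32 with a 95% interval of -0.03 to 0.68 (limma, adjusted p = 0.211). It was 0.48 without old replicate 1 (adjusted p = 0.0205), the only array whose removal gave a call. With each other array left out the adjusted p ran from 0.21 to 0.429. The 2 other Ptges probe sets differed by 0.14 and 0.33, with adjusted p = 0.573 and 0.468 over all probe sets, and old replicate 1 was the lowest array in both.

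The remaining synthases did not pass. Ptges2, a membrane-associated enzyme described as a constitutive prostaglandin E2 synthase, read 7.16, 7.21, 7.24 and 7.18 in old arrays, against 7.11, 7.52, 7.42 and 7.23 in young arrays. Its difference was -0.12 with a 95% interval of -0.32 to 0.08 (adjusted p = 0.409). Ptgis, the prostacyclin synthase, read 4.53, 4.86, 4.88 and 4.95 in old arrays, against 5.00, 5.08, 4.96 and 4.88 in young arrays. Old replicate 1 was lowest, and the difference was -0.18 (95% interval -0.39 to 0.04, adjusted p = 0.252). Ptgds, the lipocalin-type prostaglandin D2 synthase, read 4.76, 4.92, 4.87 and 4.84 in old arrays, against 4.92, 5.00, 4.88 and 4.92 in young arrays. Its difference was -0.08 (95% interval -0.22 to 0.05, adjusted p = 0.413). Ptgis and Ptgds lay below the array medians, so a change in either may not have been detectable here.

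**Figure D3:**
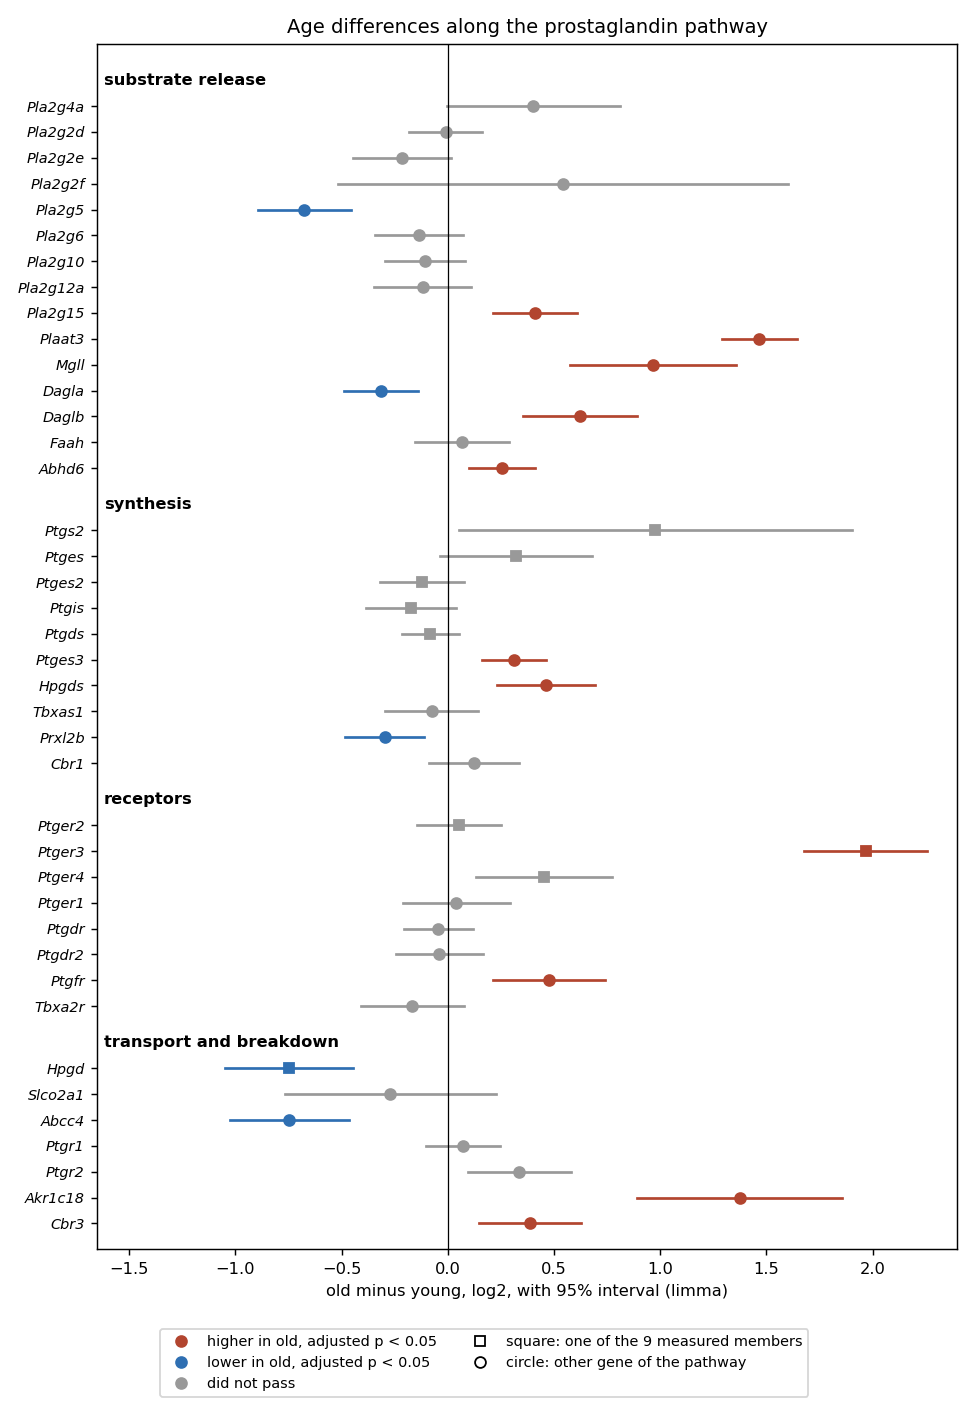
Old minus young difference in log2 level with its 95% limma interval (x axis) for the 9 members (squares) and 31 other pathway genes (circles), grouped by role. Red marks genes called higher in old, blue those called lower and grey those that did not pass. Ptger3 at 1.97 lay farthest right, followed by Plaat3 at 1.47.

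Other genes of the pathway were taken from 4 lists of 35 genes, of which 31 were measured. In old fibroblasts 10 of the 31 rose, 4 fell and 17 did not pass. That is 32.3% higher and 12.9% lower, beside 9.87% and 7.66% over all genes, with a median difference of 0.07. The shares over all genes include dim genes and are not matched in level to these lists. With genes under the median level left out, 10 rose and 4 fell, beside 1548 and 1138 of all genes kept. Those counts are larger shares of the genes kept than 9.87% and 7.66%, so the shares over all genes understate the background for bright genes. Hpgds was left out there as dim, so the 10 include a gene that the main fit did not call. The lists were chosen with earlier results of these data known, so the shares are a description. With that background index in the model, 1 of the 31, Plaat3, was called higher and 0 lower by limma, when 68 and 99 of all genes were called. With keratinocyte marker level as a covariate 5 were higher and 3 lower, and the calls lost were those of Pla2g15, Daglb, Dagla, Abhd6, Hpgds and Ptgfr.

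Genes listed for release of arachidonic acid or its precursors moved both ways, 5 up and 2 down of 15, beside 9.87% and 7.66% over all genes. Plaat3, a phospholipase of fat cells and other tissues, read 8.40, 8.32, 8.17 and 8.39 in old arrays, against 6.69, 6.85, 6.96 and 6.91 in young arrays. The groups were far apart, with a difference of 1.47 ± 0.08 (SE, limma, adjusted p = 5.2e-06). With the background index in the model it was 1.20 (adjusted p = 0.00523). The adipocyte markers Adipoq and Lep, 2 of 4 listed that were measured, averaged 3.65 to 3.73 in old and 3.63 to 3.70 in young arrays, and neither passed. Both lay below the array medians, and the part of fat cells in the Plaat3 result was not tested.

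Mgll, monoacylglycerol lipase, frees arachidonic acid from the endocannabinoid 2-arachidonoylglycerol. It read 7.54, 7.94, 7.44 and 7.06 in old arrays, against 6.51, 6.75, 6.64 and 6.21 in young arrays. All old arrays lay above all young ones (difference 0.97 ± 0.18 SE, adjusted p = 0.00454). The mean over its probe sets gave 0.61 (adjusted p = 0.0122). Daglb, a lipase that makes 2-arachidonoylglycerol, rose by 0.62 (adjusted p = 0.0061), while its relative Dagla fell by 0.32 (adjusted p = 0.0215). The lysosomal phospholipase Pla2g15 rose by 0.41 (adjusted p = 0.0111). Abhd6, another hydrolase of 2-arachidonoylglycerol, rose by 0.26 (adjusted p = 0.0299), a call lost without any 1 of 6 arrays (old 1, 2 and 4, young 1, 3 and 4, adjusted p up to 0.0813). It was also lost after repeated quantile normalization (0.20, adjusted p = 0.053), under a robust variance trend (adjusted p = 0.0637) and when its most variable probe set stood for the gene (0.25, adjusted p = 0.273).

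Pla2g5, a secreted phospholipase, fell. It read 8.36, 8.45, 8.64 and 8.81 in old arrays, against 9.16, 9.31, 9.20 and 9.29 in young arrays. The groups did not overlap, and the difference was -0.68 ± 0.10 (SE, adjusted p = 0.00135). The brightest gene of this list, the secreted phospholipase Pla2g2e, differed by -0.22 and did not pass (adjusted p = 0.199). The cytosolic phospholipase gene Pla2g4a, picked once its level was known, had a difference of 0.40 (adjusted p = 0.172).

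Of 5 other terminal synthases, 2 rose and 1 fell, beside 9.87% and 7.66% over all genes. Hpgds, the haematopoietic prostaglandin D2 synthase, read 4.48, 4.63, 4.84 and 5.00 in old arrays, against 4.31, 4.31, 4.22 and 4.26 in young arrays. The old arrays all lay above the young, with a difference of 0.46 ± 0.10 (SE, adjusted p = 0.0132). Both ages lay below the array medians, so whether Hpgds lay above background was not determined. Hpgds is a gene of mast cells and antigen-presenting cells. Of 7 mast cell markers none passed, with mean levels of 4.20 to 4.30 in old and 4.21 to 4.31 in young arrays. Of 9 macrophage and dendritic markers Lyz2 rose by 1.08 and Csf1r fell by 1.92, with mean levels of 5.23 to 5.30 in old and 5.26 to 5.37 in young arrays, and their part in the Hpgds result was not tested.

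Ptges3, the cytosolic prostaglandin E2 synthase that is also the Hsp90 co-chaperone p23, rose by 0.31 ± 0.07 (SE, adjusted p = 0.0113). That call was lost with the mean over its probe sets (0.24, adjusted p = 0.0661). Prxl2b, which makes prostaglandin F2alpha, fell by 0.30 (adjusted p = 0.0358). Its groups overlapped, and the call was lost without any 1 of 6 arrays (old 1, 2 and 3, young 2, 3 and 4, adjusted p up to 0.0989).

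Among 5 other prostanoid receptors 1 rose and 0 fell, beside 9.87% and 7.66% over all genes. Ptgfr, the prostaglandin F2alpha receptor, read 10.61, 10.44, 10.59 and 10.47 in old arrays, against 10.26, 9.68, 10.20 and 10.07 in young arrays. The groups did not overlap, and young replicate 2 was lowest. The difference was 0.48 ± 0.12 (SE, adjusted p = 0.0211), and the call was lost without old replicate 3 (adjusted p = 0.0542). Averaging its probe sets gave 0.69 (adjusted p = 0.00874), and letting its most variable probe set stand for it gave 0.90 (adjusted p = 0.0113). The difference was 0.37 with the keratinocyte covariate, which lost the call (adjusted p = 0.164). The other 4, Ptger1, Ptgdr, Ptgdr2 and Tbxa2r, differed by between -0.17 and 0.04 and did not pass. Ptgdr and Ptgdr2 lay below the array medians, so a change in either may not have been detectable here.

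Of 6 transport and further breakdown genes, 2 rose and 1 fell, beside 9.87% and 7.66% over all genes. Abcc4, a pump that exports prostaglandin E2 from cells, read 9.11, 9.40, 9.56 and 9.13 in old arrays, against 9.86, 9.90, 10.26 and 10.17 in young arrays. Every old array lay below every young one, with a difference of -0.75 ± 0.13 (SE, adjusted p = 0.00303). Slco2a1, the prostaglandin uptake carrier that delivers substrate to Hpgd, differed by -0.27 with a 95% interval of -0.77 to 0.23 and did not pass. Akr1c18, an aldo-keto reductase best known for inactivating progesterone in mice, rose by 1.38 ± 0.22 (SE, adjusted p = 0.00215). Cbr3, a carbonyl reductase, rose by 0.39 (adjusted p = 0.0336), and its call was lost without any 1 of 5 arrays (old 1 and 4, young 2, 3 and 4, adjusted p up to 0.0934) and after either rescaling (adjusted p = 0.0606 and 0.0659).

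**Figure D4:**
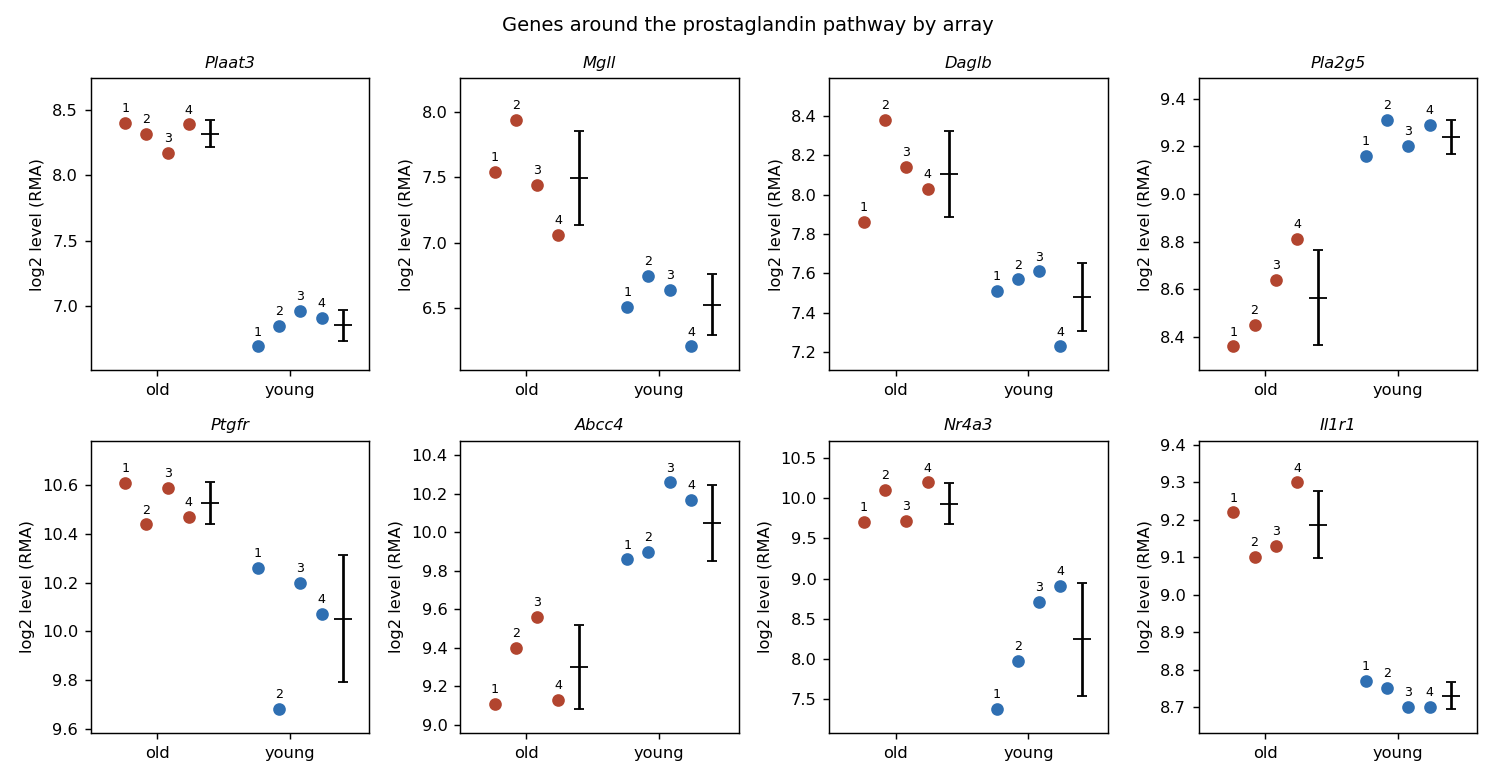
Normalized log2 level of 8 genes around the pathway by array and specimen number, old left of young, with black bars for the mean and SD (n = 4). The 8 were picked from genes called, so the lack of overlap between old and young arrays in every panel is a description. Over all genes 21.3% did not overlap. Pla2g5 and Abcc4 were the ones lower in old.

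The lipoxygenase branch, which turns arachidonic acid into leukotrienes, was set beside the cyclooxygenase branch. Of 10 measured genes 1 rose and 1 fell, beside 9.87% and 7.66% over all genes, and the median difference was -0.02. Alox5ap, the protein that presents arachidonic acid to 5-lipoxygenase, fell by 0.50 (adjusted p = 0.0138). It averaged 4.645 in old and 5.14 in young fibroblasts, both below the array medians. Cysltr2, a receptor for cysteinyl leukotrienes, rose by 0.56 (adjusted p = 0.00809). Both calls were lost with the background index in the model (Alox5ap -0.42, adjusted p = 0.508, and Cysltr2 0.23, adjusted p = 0.731) and with the keratinocyte covariate (adjusted p = 0.0566 and 0.0644). Lta4h, the hydrolase that makes leukotriene B4 and the brightest gene of the branch, averaged 9.11 in old and 9.12 in young fibroblasts.

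Transcripts that cyclic AMP induces were listed because the prostaglandin E2 receptors act on it. Of 11 measured, 2 rose, both nuclear receptors, and 0 fell, beside 9.87% and 7.66% over all genes. Nr4a3 read 9.71, 10.11, 9.72 and 10.20 in old arrays, against 7.37, 7.97, 8.71 and 8.91 in young arrays. All old arrays lay above all young ones, and the young arrays were spread more widely. The difference was 1.70 ± 0.30 (SE, adjusted p = 0.00385), and that of Nr4a2 was 0.93 ± 0.14 (SE, adjusted p = 0.00181), or 0.47 with the mean over its probe sets (adjusted p = 0.00685). Both calls were lost with the background index in the model, with Nr4a3 at 1.21 (adjusted p = 0.438) and Nr4a2 at 0.78 (adjusted p = 0.277). Fos and Fosb, the brightest of the list, lay near the top of the range and differed by -0.06 and -0.02. Crem and Pde4d, named after their values were seen, differed by -0.03 and -0.11 and did not pass. Crem lay below the array medians, so a change in it may not have been detectable here. Pde4b and Sik1 differed by 0.47 (adjusted p = 0.207) and 0.285 (adjusted p = 0.201) and did not pass either. Many of these genes also respond to dissociation, whose part in the Nr4a results was not tested.

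Of 12 measured inducers and restrainers of Ptgs2, 2 rose and 0 fell, beside 9.87% and 7.66% over all genes. Il1r1, the receptor through which interleukin-1 induces Ptgs2, read 9.22, 9.10, 9.13 and 9.30 in old arrays, against 8.77, 8.75, 8.70 and 8.70 in young arrays. The groups stood apart, with a difference of 0.46 ± 0.06 (SE, adjusted p = 0.00107). Anxa1, a protein known to restrain phospholipase A2, rose by 0.34 (adjusted p = 0.00398). Both calls were lost with the background index in the model, at 0.40 for Il1r1 (adjusted p = 0.208) and 0.30 for Anxa1 (adjusted p = 0.338). The ligands Il1a and Tnf and the glucocorticoid receptor gene Nr3c1, named after their values were seen, differed by -0.01, -0.06 and -0.18 and did not pass. Il1a and Tnf lay below the array medians, so a change in either may not have been detectable here. Il1b, the other interleukin-1 ligand listed, differed by 0.33 and narrowly missed the threshold (adjusted p = 0.054).

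The genes whose level was most like that of a called member over the 8 arrays were Tomm34 (Pearson r = 0.995) and Enpp4 (r = 0.991) for Ptger3, and Arsa (r = 0.988) and Slc43a1 (r = 0.988) for Hpgd. The arrays share the age split and their normalization, which any gene that differs with age follows, so these values are a description. Enpp4 differed by 1.62 and Tomm34 by 0.30, whereas Arsa differed by -0.32 and Slc43a1 by -0.86.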

How the data were processed

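The authors deposited log2 levels per probe set, made with RMA and the R package affy per the submitters' processing notes, which give no versions. RMA corrects background, quantile normalizes arrays and summarises probes, so a shift shared by most transcripts is hidden and differences near background are compressed. No value was missing among 45141 probe sets. GEO's platform annotation gave 1 symbol to 28898 of them, several to 551 and none to 15692, and 28689 of the 28898 matched RefSeq by gene ID. For a gene with several probe sets, the brightest on average stood for it, which left 17097 genes.

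The ages were compared by limma 3.58.1 (R 4.3.3) with lmFit and eBayes, 2-sided and without covariates. P-values were adjusted by Benjamini-Hochberg over all 17097 genes, with a threshold of 0.05. Adjusted p-values in the text come from this test, or from the same limma test over all probe sets, with a covariate, with arrays left out or with another setting where the sentence says so. The number of arrays limits the precision, and no read depth applies. The fit was tested on simulated data.

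The members and the gene lists were chosen with earlier results of these data known. Named genes are all members, every gene of the pathway lists past the threshold, the brightest gene of such a list, sort gate genes, and for each member past the threshold the 2 genes most alike over the arrays. Other genes were named after their values were seen. An old and a young mouse were collected on each day, but the labels do not tie specimen number to collection day. Which old and young arrays share a day is therefore not known. The deviations from the group means of same-numbered old and young arrays correlated at 0.285, 0.0516, -0.0442 and 0.224 over genes. Of the 8 arrays, 4 correlated best with the array of their own number in the other age. These values do not settle whether the numbers are pairs, and the main fit held no block. Alternatives covered a block, scaling, dim genes, probe set choice, variance models, array weights, a background index, the threshold and each array left out. A keratinocyte covariate was added after seeing the data. Promoters came from RefSeq (GRCm38.p6). Plots were made in Python 3.11.15 with matplotlib 3.10.9.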

Additional observations from a re-analysis of the deposited data

How the results depend on the processing

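Ptger3 kept its direction and call under every alternative run for it, with differences from 1.59 to 2.54. With 1 array left out at a time, Ptger3 differed by 1.87 to 2.08 and Hpgd by -0.82 to -0.64, and both calls were kept. The number of members called higher was 1, or 3 with the replicate block (Ptges at adjusted p = 0.0339 and Ptger4 at 0.0413). It was 2 with the mean over all probe sets (Ptger4 at adjusted p = 0.0492) and 2 with trend and robust settings (Ptger4 at 0.0471). It ran from 1 to 2 when arrays were left out. Ptger4 also passed with dim genes left out (adjusted p = 0.0424). The block left the other member calls as they were, and same-numbered arrays were not shown to be pairs. With the background index as a covariate 0 members were called lower, 68 and 99 of all genes were called higher and lower, and 1 and 0 of the other pathway genes. Ptgs2 (-0.13), Ptgis (0.058) and Ptger2 (-0.022) turned direction with it, and Ptger2 also without old replicate 4 (-0.018, with 0.11 as the highest when arrays were left out). None of these was called, and the cause was not tested. That index differs with age, so the covariate takes up part of the age difference by its construction. At an adjusted p under 0.01, 771 and 665 genes were called, and 4 and 2 other pathway genes. With the keratinocyte covariate, chosen after seeing the data, 755 and 762 genes were called, and 5 other pathway genes higher. The number of arrays limits all of these values.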
